A study of Mus musculus with 4 samples.

Results

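Glycolysis and the transcriptional response to low oxygen were described here in mouse colon and colon tumours through 32 listed genes. They encode glucose transporters, glycolytic enzymes and their regulators, lactate transporters, the HIF transcription factors and further HIF targets. Members were taken by symbol from probe sets annotated to a single gene, and where a gene had several, the one with the highest mean level was used. That gave values for 28 of the 32 members, among 22180 genes in all. Gpi1, Aldoa, Eno1 and Ankrd37 had no such probe set and were not analysed here. Of the 28, Slc2a3, Pfkm and Eno2 stayed below the median level of all genes (log2 4.67) on each of the 4 arrays, which left 25 members among 12060 genes kept by level.

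RNA was hybridised to 4 Affymetrix arrays that cover whole transcripts, with 1 array per tissue and Dmt1 genotype. Normal colon and colon tumours came from C57BL/6 mice 3 months old, on standard chow, of the genotypes CDX2; Dmt1+/+/ApcF/+ (wild-type here) and CDX2; Dmt1F/F/ApcF/+ (F/F here). Both groups therefore carried CDX2 and 1 floxed allele of Apc, the tumour suppressor that restrains Wnt signalling, and differed in Dmt1, the iron importer with the symbol Slc11a2. The labels do not spell out CDX2. In strains named this way it usually stands for Cre recombinase driven by a CDX2 promoter, which acts in intestinal epithelium and not in stroma or immune cells. According to the design text 7 wild-type animals and 4 F/F animals were used, and no source used here says whether RNA was pooled on an array. No group had a replicate, so a difference of 2 arrays carries no error estimate, and the number of arrays limits the precision.

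Glycolysis splits glucose into pyruvate, and phosphofructokinase is its main control point. Cells that make more pyruvate than their mitochondria take up reduce it to lactate with lactate dehydrogenase and export it through monocarboxylate transporters. In colonocytes the transporter MCT1, encoded by Slc16a1, also brings in butyrate made by the microbiota, which is a chief fuel of these cells. HIF factors join an oxygen-regulated alpha subunit, HIF-1alpha (Hif1a) or HIF-2alpha (Epas1), to the stable partner Arnt. Prolyl hydroxylases, which need oxygen and iron, mark the alpha subunits for capture by the Vhl protein and destruction, and HIF-2alpha is a known driver of intestinal iron transport genes, Slc11a2 among them. HIF activity is set largely at the protein level, which these arrays do not measure.

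HIF dimers bind DNA at a core of ACGTG or GCGTG. The 250 bases before the start of 4 members are printed because these were the ones that differed by 2-fold or more between tumour and normal colon in both genotypes, and 3 of them were higher in tumour while Slc16a1 was lower. Sequences are those of RefSeq on GRCm38.p6, read 5′ to 3′ on the gene's strand, with each core match on either strand in capitals. The windows lie at chr11:120948817-120949066 on the plus strand for Slc16a3, chr3:104638414-104638663 on the plus strand for Slc16a1, chr2:11553930-11554179 on the minus strand for Pfkfb3 (the first listed of 2 starts), and chr10:59951771-59952020 on the minus strand for Ddit4.
Slc16a3: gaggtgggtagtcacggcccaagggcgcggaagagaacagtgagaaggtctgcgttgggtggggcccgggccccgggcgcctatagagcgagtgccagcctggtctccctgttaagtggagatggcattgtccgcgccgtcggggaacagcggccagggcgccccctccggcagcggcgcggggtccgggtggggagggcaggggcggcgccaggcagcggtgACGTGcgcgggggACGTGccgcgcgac
Slc16a1: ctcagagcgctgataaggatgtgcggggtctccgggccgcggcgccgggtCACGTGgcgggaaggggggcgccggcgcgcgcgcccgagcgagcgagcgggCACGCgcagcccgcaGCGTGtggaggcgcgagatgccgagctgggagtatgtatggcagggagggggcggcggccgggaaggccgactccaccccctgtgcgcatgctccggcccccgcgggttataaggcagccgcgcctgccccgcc
Pfkfb3: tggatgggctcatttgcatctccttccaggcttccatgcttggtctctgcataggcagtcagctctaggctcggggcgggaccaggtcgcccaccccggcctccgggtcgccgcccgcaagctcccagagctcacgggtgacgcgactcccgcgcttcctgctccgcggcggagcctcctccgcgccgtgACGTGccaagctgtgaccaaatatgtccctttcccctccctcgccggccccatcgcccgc
Ddit4: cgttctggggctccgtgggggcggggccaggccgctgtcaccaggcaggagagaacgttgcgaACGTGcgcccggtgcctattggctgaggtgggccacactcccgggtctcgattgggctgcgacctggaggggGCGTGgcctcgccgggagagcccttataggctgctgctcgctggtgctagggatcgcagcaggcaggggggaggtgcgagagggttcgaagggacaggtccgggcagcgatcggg
Slc16a3 had 2 matches, which began 27 and 14 bases before the start, and Pfkfb3 had 1, which began 60 bases before it. Slc16a1 had 4 matches, 2 of them the opposite strands of 1 palindrome (CACGTG). Ddit4 had 2, at 187 and 115 bases before the start. Promoters were listed for 29 of the 32 members (42 windows), and 78.6% of those windows held ACGTG or GCGTG on either strand, against 38.6% of all 32851 windows. The windows differed in base composition too, with a median GC content of 61.8% for members and 52.4% for all. Matches were in 15 of 20 windows of kept members that the tumour comparison did not call. The core was thus present before the start of members that were higher, lower and not called in tumour.

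**Figure D1:**
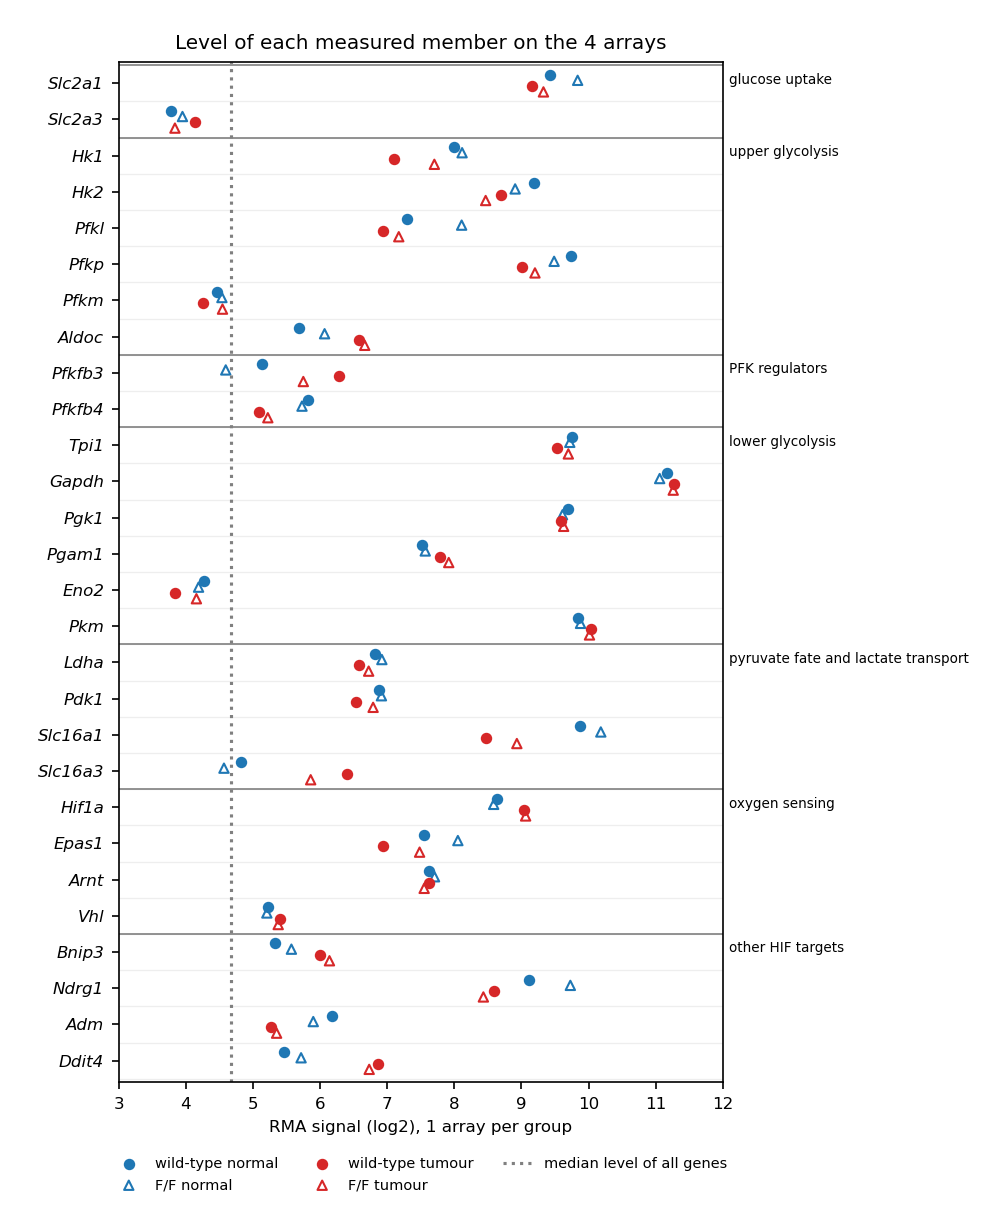
RMA signal (log2, x axis) of the 28 measured members on the 4 arrays, grouped by role: blue for normal colon, red for tumour, filled circles for wild-type, open triangles for F/F, and a dotted line at the median level of all genes (log2 4.67). Both tumour arrays lie to the right of both normal arrays for Slc16a3, Pfkfb3, Ddit4, Aldoc and Bnip3, and to the left for Slc16a1, Adm and Ndrg1, while Gapdh, Pgk1 and Pkm hardly move.

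The first question was how tumour differed from normal colon in these genes. The most marked differences were in lactate transporters, with lower Slc16a1 and higher Slc16a3, beside higher Pfkfb3 and Ddit4. Kept enzymes of lower glycolysis differed by at most 0.35 on the log2 scale. In limma's additive fit over the 4 arrays, with tissue and genotype as terms, 5 of the 25 kept members rose in tumour (Slc16a3, Ddit4, Pfkfb3, Aldoc and Bnip3), where 11.0% of all 12060 kept genes rose. Another 3 members fell (Slc16a1, Adm and Epas1), where 8.23% of all genes fell. The number that fell depended on the processing: it was 10 after median centring of the arrays, with 12.7% of all genes, and 1 without the level filter, with 4.05%. Of all calls 57.3% were rises, and 46.4% after cyclic loess normalization. At an unadjusted p under 0.05 the fit held 17 of the 25 members and 38.8% of all genes. Only 1 degree of freedom is left in this fit for the residual, which is the interaction, and both tissues of a genotype may share animals, so the p-values say nothing of how animals vary. Adjusted p-values were computed by limma over all 12060 genes, with Benjamini-Hochberg adjustment at 0.05.

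By array, 3 of 25 kept members were higher by 2-fold or more in wild-type tumour, with a background of 6.56% of kept genes, and 1 was lower, with a background of 5.31%. In F/F mice 3 were higher (background 5.98%) and 2 lower (3.81%). At a log2 difference of 0.5 or more, 5 members were higher and 7 lower in wild-type tumour, against 21.3% and 15.4% of kept genes. In F/F tumour 5 were higher and 7 lower as well, against 18.1% and 12.9%. The 3 members below the median level differed by less than 0.5 in each comparison. At 0.5 the share of members that were higher was thus near the background and the share that was lower was above it. At 2-fold the counts are too small to read in this way. The median over the 25 kept members was -0.23 in wild-type and -0.12 in F/F mice, beside medians of 0.08 and 0.04 over all kept genes. Over the 28 measured members the medians were -0.22 and -0.07. The tumour difference had the same sign in both genotypes for 24 of the 28, where 78.2% of kept genes did. The share of all genes with tissues that did not overlap was not counted. Where this is given for a member it only describes its 4 values.

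**Figure D2:**
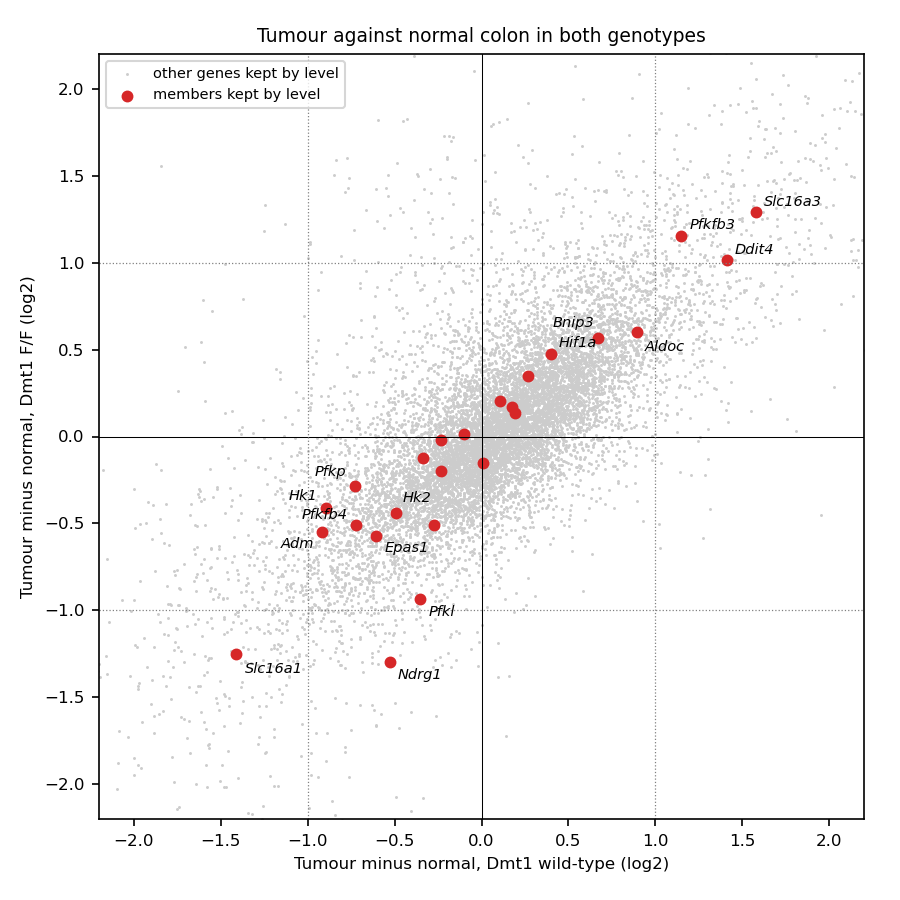
Tumour minus normal (log2) in Dmt1 wild-type mice (x axis) against the same difference in F/F mice (y axis). Red points are the 25 kept members and grey points the other kept genes, with dotted lines at a 2-fold difference and differences beyond the axes not drawn. Slc16a3, Pfkfb3 and Ddit4 lie beyond 2-fold in the upper right and Slc16a1 in the lower left.

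Glucose enters the epithelium in part through Slc2a1 (GLUT1), the widespread basal glucose transporter. The log2 signal of Slc2a1 was 9.43 and 9.84 in wild-type and F/F normal colon and 9.16 and 9.33 in the tumours, so that both tumour arrays lay below both normal arrays. The fitted tumour difference was -0.39 (SE 0.12, adjusted p = 0.082) and did not pass. A second, much dimmer probe set of Slc2a1 was higher in wild-type tumour (0.52) and lower in F/F tumour (-0.45). Slc2a3 (GLUT3), a high-affinity transporter best known in neurons and blood cells, was below the median level of all genes on every array, between 3.77 and 4.13.

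Hexokinases trap glucose by phosphorylating it, and the 2 isozymes among the members, Hk1 and Hk2, were lower on both tumour arrays. Hk1 was at 7.99 and 8.12 in wild-type and F/F normal colon and at 7.10 and 7.70 in the tumours, a fitted difference of -0.65 (SE 0.16, adjusted p = 0.0576). Hk2, the isozyme that HIF-1 and many cancers induce, was at 9.18 and 8.91 in normal colon and 8.69 and 8.47 in tumour (-0.47, SE 0.11, adjusted p = 0.0501). Neither difference passed the threshold. The Hk1 difference was larger in wild-type mice (-0.89) than in F/F mice (-0.41), which was not tested.

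Phosphofructokinase subunits came next in the pathway. Pfkp, the platelet type, was at 9.74 and 9.49 in normal colon and 9.01 and 9.20 in tumour (-0.51, SE 0.15, adjusted p = 0.0789). Pfkl, the liver type, was at 7.30 and 8.11 in normal colon and 6.94 and 7.17 in tumour (-0.65, SE 0.18, adjusted p = 0.0733). The high value of Pfkl was that of F/F normal colon, while the wild-type normal array lay close to both tumours. Pfkm, the muscle type, was below the median level throughout, between 4.26 and 4.55.

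Pfkfb3 and Pfkfb4 encode bifunctional enzymes that make and break the allosteric activator of phosphofructokinase. Pfkfb3, whose kinase activity predominates and which raises the activator, was at 5.14 and 4.59 in wild-type and F/F normal colon, and 6.29 and 5.75 in the tumours. It rose by 1.15 (SE 0.15, adjusted p = 0.0182), a 2.22-fold change of nearly the same size in both genotypes (1.15 and 1.16). Its value in F/F normal colon was below the median level that stands in for background, so that difference may understate the change. Pfkfb4 was at 5.81 and 5.73 in normal colon and 5.09 and 5.22 in tumour, a difference of -0.61 (SE 0.15, adjusted p = 0.0588) that did not pass.

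Aldolase C, the aldolase of brain and other specialised tissues, stood apart from the upper enzymes. Aldoc was at 5.69 and 6.07 in normal colon and at 6.58 and 6.67 in tumour, and rose by 0.75 (SE 0.14, adjusted p = 0.0361), a call that 2 of 6 alternatives lost (adjusted p up to 0.0506). Both tumour values exceeded both normal values. The major aldolase, Aldoa, was not analysed here, so this says nothing of total aldolase message.

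Enzymes of lower glycolysis differed little. Gapdh, at 11.17 and 11.06 in normal colon and 11.28 and 11.26 in tumour, differed by 0.15 (SE 0.09, adjusted p = 0.297). Pgk1, the first ATP-producing enzyme, ranged from 9.59 to 9.69 over the 4 arrays, and Tpi1, triosephosphate isomerase, from 9.52 to 9.76. Pyruvate kinase, Pkm, was at 9.85 and 9.88 in normal colon and 10.04 and 10.01 in tumour (0.16, SE 0.10, adjusted p = 0.295). These values do not tell the Pkm splice forms apart. Pgam1, phosphoglycerate mutase, was at 7.52 and 7.57 in normal colon and 7.79 and 7.92 in tumour (0.31, SE 0.11, adjusted p = 0.127), but its second probe set was higher by 0.66 in wild-type tumour and lower in F/F tumour (-0.28). Eno2, the neuronal enolase, was below the median level, between 3.83 and 4.28. Several of these genes have processed pseudogenes whose transcripts could add to a probe set, so small differences in Gapdh, Tpi1, Pgk1 and Pgam1 are uncertain.

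At the end of the pathway, the enzymes that choose the fate of pyruvate were lower by small amounts that did not pass. Ldha, the lactate dehydrogenase subunit favoured in glycolytic tissue, was at 6.82 and 6.92 in normal colon and 6.59 and 6.72 in tumour (-0.21, SE 0.12, adjusted p = 0.256). Pdk1, a kinase that shuts off pyruvate dehydrogenase and a HIF-1 target, was at 6.88 and 6.91 in normal colon and 6.54 and 6.79 in tumour (-0.23, SE 0.13, adjusted p = 0.258). With the probe sets used, both tumour arrays lay below both normal arrays for each gene. A second, much dimmer probe set of Pdk1 was higher in wild-type tumour (0.31) and lower in F/F tumour (-0.54).

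The lactate transporters carried the clearest difference. Slc16a1 was at 9.88 and 10.18 in wild-type and F/F normal colon, and 8.47 and 8.93 in the tumours. The gene fell by 1.33 (log2, SE 0.11, adjusted p = 0.00931), which is 2.51-fold lower, and 2.58% and 2.27% of kept genes had a difference as low in wild-type and F/F mice. Slc16a3, which encodes MCT4, the low-affinity exporter typical of glycolytic cells, was at 4.82 and 4.57 in normal colon and 6.40 and 5.86 in tumour. It rose by 1.43 (SE 0.16, adjusted p = 0.0154), a 2.70-fold change, with 2.61% and 3.56% of kept genes as high. In F/F normal colon Slc16a3 was below the median level, so its change may be understated. Both calls held in each of the 6 alternative analyses (adjusted p between 0.000492 and 0.0221 for Slc16a1 and between 0.00238 and 0.0226 for Slc16a3).

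Of the alpha subunits of HIF, Epas1 was lower in tumour, while the probe sets of Hif1a disagreed. Epas1 was at 7.54 and 8.05 in wild-type and F/F normal colon, and 6.94 and 7.48 in the tumours. It fell by 0.59 (log2, SE 0.11, adjusted p = 0.0368), a call that was lost without the level filter (adjusted p = 0.0501) and without a trend (0.0584), with like differences in wild-type (-0.60) and F/F mice (-0.57), although F/F tumour was close to wild-type normal colon. Hif1a was at 8.64 and 8.59 in normal colon and 9.04 and 9.06 in tumour, a difference of 0.44 (SE 0.11, adjusted p = 0.0576) that did not pass. A second Hif1a probe set at a lower level gave the opposite sign, -0.52 in wild-type and -0.64 in F/F mice, so no direction is given for Hif1a. Arnt (-0.07, SE 0.12) and Vhl (0.17, SE 0.15) differed little, with adjusted p-values of 0.68 and 0.444.

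Among the other HIF targets the response was divided. Ddit4 encodes REDD1, an inhibitor of mTORC1 that also responds to glucocorticoids and energy stress. It was at 5.46 and 5.72 in normal colon and 6.87 and 6.73 in tumour, and rose by 1.21 (SE 0.16, adjusted p = 0.019), a 2.32-fold change. Bnip3, a mitophagy receptor, was at 5.32 and 5.57 in normal colon and 6.00 and 6.14 in tumour, and rose by 0.62 (SE 0.14, adjusted p = 0.0464). This call held in 2 of 6 alternatives, with adjusted p-values from 0.0417 to 0.0855. Adm, the precursor of the vasodilator peptide adrenomedullin, was at 6.18 and 5.90 in normal colon and 5.26 and 5.35 in tumour, and fell by 0.73 (log2, SE 0.16, adjusted p = 0.0472). The call was lost without the level filter (adjusted p = 0.0613) and without a trend (0.0583). Ndrg1, a stress and differentiation gene, was at 9.12 and 9.73 in normal colon and 8.59 and 8.43 in tumour. Its fitted difference of -0.91 (SE 0.21, adjusted p = 0.0511) did not pass, with an array difference of -0.53 in wild-type and -1.30 in F/F mice.

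**Figure D3:**
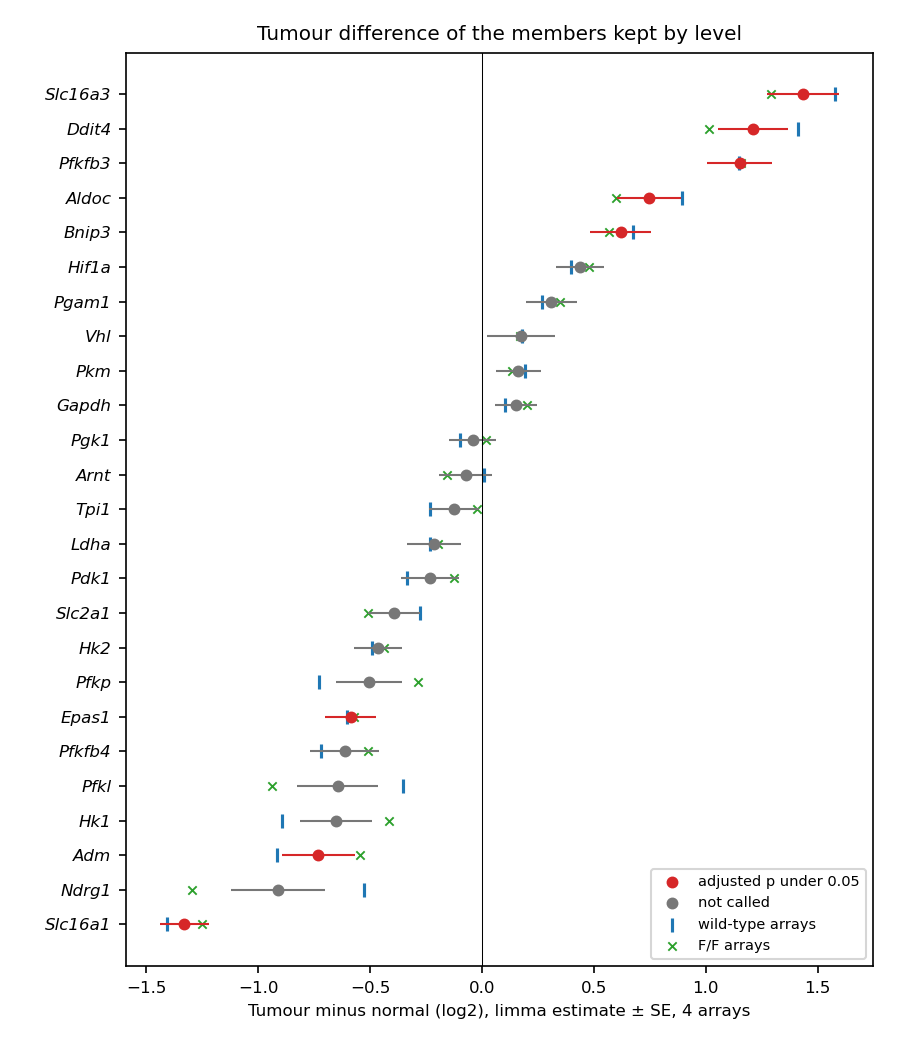
Tumour minus normal (log2, x axis) for the 25 kept members, ordered by limma's estimate over 4 arrays (points, with bars of 1 SE). Red points passed an adjusted p of 0.05, grey points did not, and blue ticks and green crosses give the difference between the wild-type arrays and between the F/F arrays. Slc16a3 at 1.43 and Slc16a1 at -1.33 are the extremes.

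Other genes of these pathways were taken from lists drawn up by role, of which 59 of 68 were measured and 49 kept. In the same fit 3 of the 49 rose and 12 fell, beside 11.0% and 8.23% of all kept genes. Among glycolysis isozymes and branches 1 of 15 kept genes rose and 4 fell. The ADP-dependent glucokinase Adpgk rose by 0.87 (SE 0.15). The hexokinase-like Hkdc1 fell by 2.58 (SE 0.39), Pdk4, a pyruvate dehydrogenase kinase of fasting, by 1.31 (SE 0.17), the monocarboxylate transporter Slc16a7 (MCT2) by 1.11 (SE 0.18) and the mitochondrial pyruvate carrier subunit Mpc1 by 0.68 (SE 0.12). In gluconeogenesis 2 of 4 kept genes fell. The phosphoenolpyruvate carboxykinase gene Pck1 fell by 1.92 (SE 0.12) and the fructose bisphosphatase gene Fbp2 fell by 0.56 (SE 0.11). In the pentose phosphate pathway 1 of 5 fell, the transaldolase Taldo1 by 0.65 (SE 0.12). Slc16a7 and Hkdc1 were below the median level of all genes on both tumour arrays and Pdk4 on 1, so their differences may be understated. The adjusted p-values of these 8 genes lay between 0.00604 and 0.0377.

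Of 12 kept genes of oxygen sensing 1 rose, the prolyl hydroxylase gene Egln3, itself a HIF target, by 0.78 (SE 0.13, adjusted p = 0.0287), and none fell. Its values were 8.51 and 7.98 in normal colon and 9.14 and 8.91 in tumour. Of 13 kept HIF targets outside glycolysis 1 rose and 5 fell, where 11.0% and 8.23% of all kept genes did. The collagen crosslinking enzyme Lox rose by 1.48 (SE 0.20, adjusted p = 0.021). Lox was below the median level on both normal arrays (4.00 and 3.63), so its difference may be understated. The carbonic anhydrase Car12 fell by 2.69 (SE 0.13), the mitochondrial Higd1a by 1.88 (SE 0.14), ferroportin, Slc40a1, by 0.82 (SE 0.11), Mxi1 by 0.70 (SE 0.12) and Ero1a by 0.49 (SE 0.10), with adjusted p-values between 0.00381 and 0.0425. The angiogenic factor Vegfa did not pass (-0.18, SE 0.14, adjusted p = 0.376). Calls of these genes outside the members were not followed through the alternative analyses.

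Signals of cell type markers moved with the tumour comparison. Markers of mature colonocytes, which lie at the surface and use butyrate, were lower by 2-fold or more for 8 of 8 genes in wild-type mice and 2 of 8 in F/F mice. Their summed linear signal was 13750 and 15140 in wild-type and F/F normal colon, and 3867 and 9682 in the tumours. Neutrophil markers were higher by 2-fold or more for 8 of 8 genes in wild-type mice and 5 of 8 in F/F mice, with sums of 160.8 and 117.6 in normal colon and 1065 and 324.8 in tumour. Smooth muscle markers were lower for 7 of 8 genes in wild-type tumour and 1 of 8 in the F/F pair, from sums of 7824 and 4856 to 2281 and 3519. Macrophage sums were 728 and 532.4 in normal colon and 1281 and 1053 in tumour. B cell markers were higher by 2-fold for 0 of 4 genes in wild-type and 4 of 4 in F/F mice, with sums of 139.2 and 84.57 in normal colon and 120.4 and 453 in tumour. Fibroblast markers had median differences of 0.54 in wild-type and 0.998 in F/F mice, and endothelial markers of 0.36 and 0.71. Adipocyte markers were lower by 2-fold for 1 of 6 genes in wild-type and 6 of 6 in F/F mice, with sums of 178.9 and 366.8 in normal colon and 92.31 and 105.2 in tumour. The 8 markers shared by all epithelium differed by less, with medians of -0.20 and -0.24 and none past 2-fold, and of the 8 Wnt targets 8 in wild-type and 7 in F/F mice were higher by 2-fold or more. In bulk tissue fewer cells of a type and less RNA per cell cannot be told apart, and the part of these lists in the differences of the members was not tested. Erythroid markers were not analysed here, and the 4 measured markers of enteric neurons and glia were below the median level on all arrays. So were 2 of the 6 adipocyte markers and 2 of the 7 endothelial markers.

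**Figure D4:**
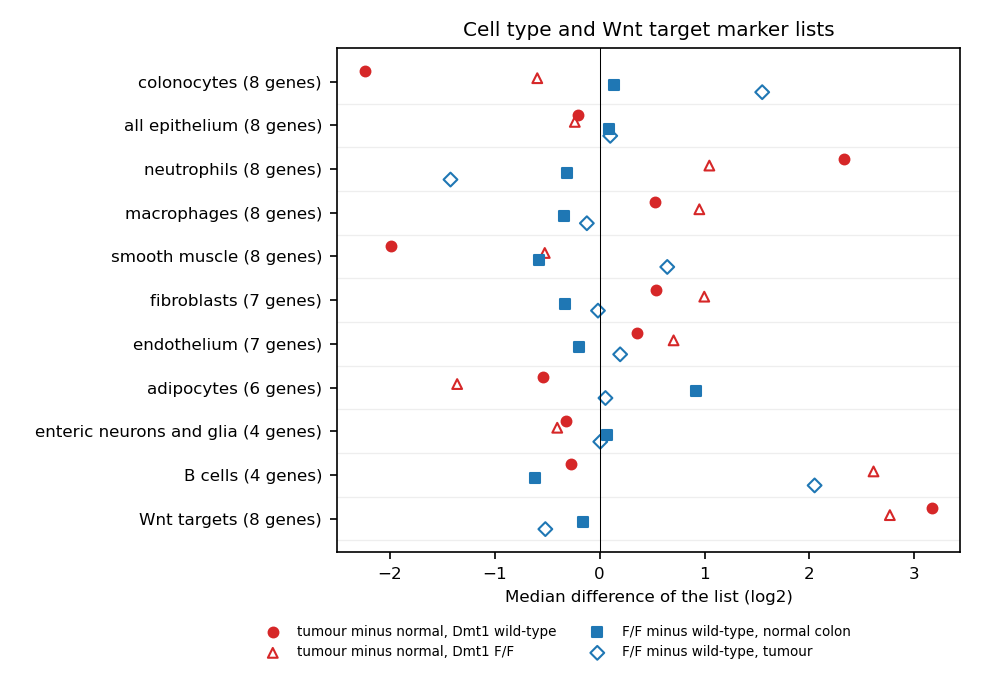
Median difference (log2, x axis) of marker lists for cell types and of Wnt targets, with red circles and triangles for tumour minus normal in wild-type and F/F mice and blue squares and diamonds for F/F minus wild-type in normal colon and tumour. Tumour minus normal is -2.24 for colonocyte markers in wild-type mice and -0.59 in F/F mice, and for neutrophil markers 2.33 and 1.05.

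The second question was how the Dmt1 genotype bore on the same genes, in normal colon and in tumour. Differences were smaller here: no measured member reached 2-fold in either tissue. Epas1 and Slc16a1 were higher and Pfkfb3 and Slc16a3 lower in F/F on both pairs of arrays, and Pfkl, Ndrg1 and Slc2a1 were higher in F/F normal colon. None of these passed the test. Slc11a2, the gene that the genotype targets, was lower in F/F on both pairs, at 6.51 and 6.13 in wild-type and F/F normal colon and at 6.64 and 6.19 in tumour (-0.41, SE 0.12, adjusted p = 0.564). No source used here says where the probe set lies relative to the floxed part, so this size does not measure deletion.

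In normal colon 0 of 25 kept members were higher and 0 lower by 2-fold, where 0.713% and 0.904% of kept genes were. At a log2 difference of 0.5 or more, 3 were higher (Pfkl, Ndrg1 and Epas1) against 5.93% of kept genes, and 1 was lower (Pfkfb3) against 5.75%. In tumour 0 were higher and 0 lower by 2-fold, against 1.70% and 0.506%, and at 0.5 or more 2 were higher (Hk1 and Epas1) and 2 lower (Pfkfb3 and Slc16a3), against 7.28% and 4.35%. These counts are small and most lie near the background. Medians over the kept members were 0.04 in normal colon and 0.09 in tumour, beside 0.04 and -0.02 over all kept genes. limma called no member and no gene between genotypes (0 of 12060 in either direction), with 4 of the 25 members and 8.22% of all genes at an unadjusted p under 0.05. Those 4 were Epas1, Pfkfb3, Slc16a1 and Pfkl.

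**Figure D5:**
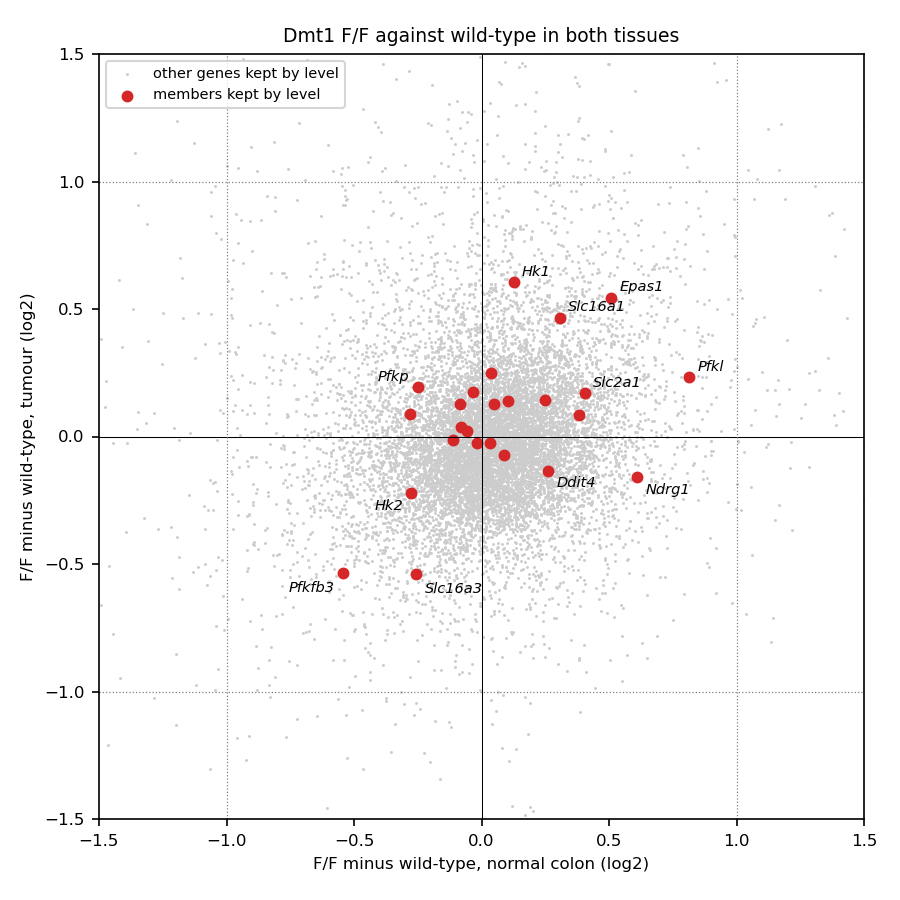
F/F minus wild-type (log2) in normal colon (x axis) against the same difference in tumour (y axis), with the 25 kept members in red, the other kept genes in grey, dotted lines at 2-fold, and differences beyond the axes not drawn. Epas1 lies at 0.51 and 0.54, Pfkfb3 at -0.54 and -0.54, and no member reaches a dotted line.

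Epas1 was higher in F/F by 0.51 in normal colon and 0.54 in tumour, and in each tissue the F/F array was the higher one. It was the only member higher by 0.5 or more in both tissues, a rule that 1.33% of kept genes met. The fitted genotype difference was 0.53 (SE 0.11, adjusted p = 0.523). Pfkfb3 was lower in F/F by 0.54 in both tissues and the only member lower by that much in both, which 0.862% of kept genes were (-0.54, SE 0.15, adjusted p = 0.554). Slc16a3 was lower by 0.26 in normal colon and 0.54 in tumour (-0.40, SE 0.16, adjusted p = 0.638), and Slc16a1 higher by 0.31 and 0.47 (0.39, SE 0.11, adjusted p = 0.564). Each of the transporters thus lay, in F/F tumour, between its wild-type tumour value and its normal values.

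Among enzymes, Pfkl was higher by 0.81 in F/F normal colon and by 0.23 in F/F tumour (0.52, SE 0.18, adjusted p = 0.589). Hk1 was higher by 0.13 in normal colon and 0.61 in tumour (0.37, SE 0.16, adjusted p = 0.649), while Hk2 was lower by 0.28 and 0.22 (-0.25, SE 0.11, adjusted p = 0.646). Slc2a1 was higher by 0.40 and 0.17 (0.29, SE 0.12, adjusted p = 0.637). Differences of Gapdh, Pgk1, Pkm and Ldha stayed within 0.14 in both tissues. The tumour difference of 2 members was unlike between genotypes by 0.5 or more: it was lower in F/F than in wild-type mice by 0.77 for Ndrg1 and by 0.58 for Pfkl. No residual degrees of freedom are left to test this, and the share of all kept genes unlike by as much was not counted. For both genes the F/F normal array held the highest value (9.73 for Ndrg1 and 8.11 for Pfkl).

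Among the other genes of the pathways, Pdk2, a pyruvate dehydrogenase kinase named here after its values were seen, was more than 2-fold higher in F/F in both tissues. It was at 6.24 and 7.32 in wild-type and F/F normal colon and 5.87 and 6.88 in tumour, a fitted difference of 1.05 (SE 0.12) whose adjusted p of 0.506 did not pass. The transferrin receptor Tfrc, a HIF target that is also stabilised when iron is short, was higher by 0.55 and 0.89 (adjusted p = 0.523). Slc40a1, a target credited to HIF-2 in the intestine, was higher by 0.27 and 0.34 (adjusted p = 0.591). Another, the ferrireductase gene Cybrd1, was below the median level on all arrays.

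Position and cell markers moved with the genotype as well. Posterior homeobox genes, chosen with earlier results of these arrays known, were far lower in F/F normal colon: Hoxd13 was at 6.86 in wild-type and 3.02 in F/F normal colon, and Hoxb13 at 5.06 and 3.80. Their differences in tumour were -0.23 and 0.28. In wild-type mice Hoxd13, Hoxb13 and Hoxd11 were higher in tumour than in normal colon, by 1.72, 1.14 and 1.41. Where the normal pieces were taken therefore cannot be told apart from genotype in normal colon, or from tissue in wild-type mice. It touches the tumour differences in F/F mice too, which share the F/F normal array. Set against wild-type normal colon instead, an alternative chosen after seeing the data, F/F tumour had 2 kept members higher by 2-fold, Slc16a3 by 1.04 and Ddit4 by 1.28, and 0 lower, where 4.00% of kept genes were higher and 2.10% lower. Pfkfb3 was then higher by 0.61, Slc16a1 lower by 0.94 and Ndrg1 lower by 0.69, while Epas1 was at -0.06. In F/F tumour against wild-type tumour, colonocyte markers were higher by 2-fold for 5 of 8 genes and neutrophil markers lower for 7 of 8. B cell markers were higher for 3 of 4. In F/F normal colon adipocyte markers were higher by 2-fold for 3 of 6. The part of these lists in the genotype differences was not tested.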

How the data were processed

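Per the submitters' processing notes, the authors made the values with RMA in the oligo package (versions not given there). They deposited them as log2 signals, 1 per probe set, for 41345 probe sets on 4 arrays. RMA corrects background, forces the probe intensities of the arrays to a common distribution and summarises probes. A difference in total signal between arrays is thus removed at the probe level, and no detection call is made. The probe set values still differed somewhat, with medians from 4.27 in F/F normal colon to 4.34 in F/F tumour. The platform's annotation gave 1 gene for 23521 probe sets, several for 1814 and none for 16010. RefSeq's table for GRCm38.p6 gave symbols for 23328 by gene ID. A gene was kept where its highest value reached the median of gene means (log2 4.67), which left 12060 genes. Array correlations over probe sets ran from 0.953 to 0.986.

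Differences between arrays are in log2, counted at 1 (2-fold) and at 0.5. limma 3.58.1 in R 4.3.3 fitted tissue and genotype as additive terms with eBayes and a trend. The fit was also run on simulated data with independent noise and no interaction, which cannot show how far the calls hold in these arrays. Each of the 32 members was named and the 28 measured were described. Other pathway genes were named where limma called them or the difference was 2-fold in both genotypes, apart from those said to be chosen later and a few given for their role. The members and lists were chosen with earlier results of these data known. Alternatives were other normalizations, the mean of probe sets, no level filter, no trend and another baseline. Promoters were read 250 bases before the start.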

Additional observations from a re-analysis of the deposited data

Results flagged for a closer look

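The Dmt1 genotype difference of 3 kept members went in opposite directions in normal colon and tumour, by at least 0.1 each way. There was 1 array per group, and the difference between the tissues was not tested. The share of all genes that meet this rule was not counted. The sign was the same in both tissues for 16 of the 28 measured members and 55.4% of kept genes. Slc2a3, below the median level on every array, went opposite ways too (0.18 and -0.29). Pfkp was lower in F/F normal colon (-0.25) and higher in F/F tumour (0.19). Ndrg1 was higher in F/F normal colon (0.61) and lower in F/F tumour (-0.16), and its second, dimmer probe set gave 0.48 and -0.19. Ddit4 was higher in F/F normal colon (0.26) and lower in F/F tumour (-0.13). No kept member differed in this way between genotypes in the tumour comparison.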

How the results depend on the processing

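No paired analysis was possible because the labels give no replicate numbers and each group has 1 array. For the same reason no array could be left out of the fit. With a threshold of log2 0.5 in place of 1, members higher and lower were 5 and 7 for tumour in wild-type mice, 5 and 7 for tumour in F/F mice, 3 and 1 for F/F in normal colon, and 2 and 2 for F/F in tumour. Quantile normalization and cyclic loess gave 2 lower members in wild-type tumour in place of 1 (Adm joined Slc16a1). In F/F mice Ddit4 fell short of 2-fold after median centring (0.94), quantile normalization (0.89) and cyclic loess (0.91). Members higher in F/F tumour were then 2 in place of 3. Members lower in F/F tumour were 3 in place of 2 after median centring and cyclic loess, where Pfkl joined. Against wild-type normal colon, the members lower in F/F tumour were 0 in place of 2 and those higher 2 in place of 3. The mean of a gene's probe sets moved the wild-type tumour median from -0.23 to -0.0814. The members that rose numbered 3 after quantile normalization and 3 without a trend, in place of 5, with 9.05% and 8.31% of all genes in place of 11.0%. Those that fell numbered 10 after median centring (12.7% of all genes), 6 after quantile normalization (10.0%), 7 after cyclic loess (10.2%), 1 without the level filter (4.05%) and 1 without a trend (6.09%), in place of 3 (8.23%), and the cause was not tested. Calls of Slc16a3, Slc16a1, Pfkfb3 and Ddit4 held in all 6 alternatives, those of Aldoc, Adm and Epas1 in 4 and that of Bnip3 in 2. Hk2 was called in 4 and Ndrg1 and Pfkfb4 in 3. Of the calls over all genes 57.3% rose, and 49.3%, 47.5% and 46.4% after median centring, quantile normalization and cyclic loess. No member or other gene was called between genotypes in any alternative. No array difference of 2-fold or more changed sign.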

Other observations

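Among listed pathway genes not described above, Eno3, the muscle enolase, differed between genotypes in tumour more than any member. It was at 7.25 and 6.86 in wild-type and F/F normal colon and at 6.44 and 7.90 in the tumours, so that tumour was lower in wild-type (-0.81) and higher in F/F mice (1.04). The carbonic anhydrase and HIF target Car9 was at 7.25, 7.54, 6.37 and 7.41 on the same arrays, with the wild-type tumour low. Pcx, which encodes pyruvate carboxylase, was at 6.23, 6.20, 5.30 and 6.17, again with wild-type tumour low. Summed colonocyte markers (3867) and smooth muscle markers (2281) were lowest on that array too, and whether this bears on Eno3, Car9 or Pcx was not tested. Hkdc1 was at 6.38 in wild-type and 7.89 in F/F normal colon and near the median level of all genes in both tumours (4.58 and 4.54). These genes were named after their values were seen, and limma's genotype term over both tissues passed for none of them, with adjusted p-values of 0.795 for Eno3, 0.57 for Car9, 0.707 for Pcx and 0.672 for Hkdc1. Their differences within a tissue have no test.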
